A study of Mus musculus with 32 samples.

Results

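The genes described here encode the proteins of the cytosolic ribosome of the mouse. They were taken by name: symbols made of Rpl or Rps with a number and an optional letter suffix, together with Rplp0, Rplp1, Rplp2 and Rpsa. No measured value entered this rule, but it was chosen with earlier results of these data known. The rule found 85 of the 24538 genes in the table, and 80 of the 85 passed the filter on low values that left 11562 genes to test. RNA sequencing was done on S49 cells, a mouse T lymphoma line that dies when exposed to glucocorticoids. All cells carried a stably expressed G418 (neomycin) resistance gene. The S49 (Neo) cells carried that gene alone, and the S49 (Bcl-2) cells also stably expressed Bcl-2, a protein that blocks mitochondrial cell death. Cells of each line were controls without dex or received 250 nM of the synthetic glucocorticoid dexamethasone (dex). Both were kept for 24 h or 48 h, which gave 8 groups of 4 libraries. Bcl-2 is known to protect such cells from glucocorticoids, and in these bulk samples a change in which cells remain and a change in RNA per cell cannot be told apart.

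Each ribosome joins a small (40S) subunit, which reads the mRNA, to a large (60S) subunit, which forms the peptide bond. Most of their proteins are needed in equal copies, are encoded by a single active gene with many silent copies in the genome, and are among the most abundant transcripts of a growing cell. Their mRNAs typically begin with a cytosine followed by an unbroken run of pyrimidines, the terminal oligopyrimidine tract. Through this tract the growth-regulating kinase mTOR, acting by way of the RNA-binding protein Larp1, controls the translation and stability of the whole set together. In thymocytes and T lymphoma cells glucocorticoids are known to slow growth and protein synthesis.

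The first bases of the transcripts are printed for 6 members that the results below turn on, since the oligopyrimidine tract is the feature these genes are known for. Each window runs from 15 bases before to 15 bases after the RefSeq start on GRCm38.p6, on the transcribed strand. Capitals mark the longest run of a C and 4 or more further pyrimidines that begins within 20 bases of the start, and other runs are left in lower case.
Rpl28 (chr7:4792950-4792979, plus strand): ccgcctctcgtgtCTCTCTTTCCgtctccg
Rps18 (chr17:33955651-33955680, minus strand): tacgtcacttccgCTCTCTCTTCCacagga
Rps6 (chr4:86857353-86857382, minus strand): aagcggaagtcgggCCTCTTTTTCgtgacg
Rps2 (chr17:24720048-24720077, plus strand): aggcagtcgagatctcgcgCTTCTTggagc
Rps28 (chr17:33824548-33824577, minus strand): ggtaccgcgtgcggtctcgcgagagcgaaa
Rpl23 (chr11:97782425-97782454, minus strand): acgaggtccggtcacgtggctgagtgggcg

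Rpl28, Rps18 and Rps6 carried the tract at the annotated start, Rps2 had a shorter run and Rps28 and Rpl23 had none in this window. RefSeq promoter windows (250 bases before to 50 after the start) were matched for 64 of the 85 members. A tract of C and at least 7 further C or T, beginning within 20 bases of the start on the transcribed strand, was found in 32 of the 64 (50%) and in 15.7% of all 27025 genes with a window. On the opposite strand the same search found it in 7.81% of members and 18.1% of all genes. Among other motifs, searched on both strands, the ETS core CCGGAA stood in 54.7% of members and 16.7% of all genes, and the YY1 core GCCATNTT in 20.3% and 6.96%. The Sp1 box GGGCGG was found in 60.9% and 38.2%, the E box CACGTG in 9.38% and 8.09% and the TATA box TATAAA in 12.5% and 15.7%. The full palindromic glucocorticoid response element was found in 0 of the 64 windows and in 0.0111% of all. A match describes letters only and is not evidence of binding.

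The deposited values were log2 normalized expression, in which a difference of 1 is a doubling. They are not corrected for transcript length. Of the 80 tested members, 73 had a mean of at least 14 (14.01 to 17.12), a level that 96.6% of tested genes did not reach, and 46 of the 100 highest genes in the table were members. Rpsa (17.12), Rplp0 (17.07) and Rps3a1 (17.07) were highest. Lower down stood the paralogs Rpl7l1 (12.73), Rps27l (12.74) and Rpl22l1 (12.90), and 4 members had means under 10: Rpl34 at 9.85, Rpl32l at 8.16, Rpl30 at 7.96 and Rps27 at 7.95. The 5 members that were not tested were Rpl3l with a mean of 2.99, Rpl26 with -0.41, Rps4l with -1.38, Rpl10l with -1.96 and Rpl39l with -2.26. In GENCODE M21, Rpl32l and Rps4l are annotated as processed pseudogenes and the other 83 as protein coding. A median of 34.4% of the 75-base words in a member's transcripts also occur in other genes, and 25 members share at least 50% of them, so that reads could be moved between a gene and its copies. The share was 35.5% for Rpl26, 24.5% for Rpl30, 4.92% for Rpl34 and 60.7% for Rps27, so Rpl30 and Rpl34 were below that median. The part of shared reads in the low values of these 4 genes was not tested.

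The libraries were alike in most groups, with 1 exception. In a library of the dex-treated S49 (Bcl-2) cells at 24 h (replicate 3) genes differed from the mean of its replicates with an SD of 0.766, against 0.107 to 0.313 in all other libraries, and its deviations rose with the GC content of the transcript (r = 0.77 across genes). Members deviated from the group mean there by -3.6 to 0.91. All groups shared 1 estimate of the spread, so this library widened the errors of every comparison. Counts of calls are therefore also given without it, for each comparison and, within groups of genes, at least where it moved a count by over 1.5 times, an alternative chosen after seeing the data. Reads assigned to the mouse Bcl2 gene, which need not be those of the transgene, separated the lines in all libraries, with values of 7.70 to 8.62 in S49 (Neo) and 10.48 to 11.45 in S49 (Bcl-2). All 12 T cell markers passed the filter, while 1 of 6 B cell, 2 of 7 macrophage and granulocyte, and 2 of 8 stromal, endothelial and epithelial markers did. Over those lists in turn the summed level ranged from 16.51 to 17.22, 4.73 to 7.41, 9.20 to 10.09 and 8.54 to 10.65. In S49 (Bcl-2) cells at 48 h the summed stromal, endothelial and epithelial level was 10.41 in controls and 8.69 with dex, led by Pecam1, and that of B cell markers 5.77 and 7.24, led by Blnk. Their part in the results was not tested. Nothing in the labels says that replicates were separate cultures, and the p-values measure only the spread between these libraries.

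Taken on the linear scale, the 85 genes held 8.80% ± 0.16 (SD, n = 4) of all normalized signal in S49 (Neo) controls at 48 h and 10.2% ± 0.28 after dex. In S49 (Bcl-2) cells at 48 h the share was 8.56% ± 0.079 in controls and 11.8% ± 0.30 after dex. The libraries did not overlap, at 8.49 to 8.65% against 11.5 to 12.1%. At 24 h the shares were 9.11% ± 0.16 and 9.73% ± 0.094 in S49 (Neo), and 8.86% ± 0.15 and 10.4% ± 1.4 in S49 (Bcl-2), the latter 9.70% ± 0.099 (n = 3) without the outlying library, which stood at 12.5%. The share was higher with dex than without it in both lines and at both times, and highest in S49 (Bcl-2) cells after 48 h. It depends on the signal of all other genes as well as on the members.

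**Figure D1:**
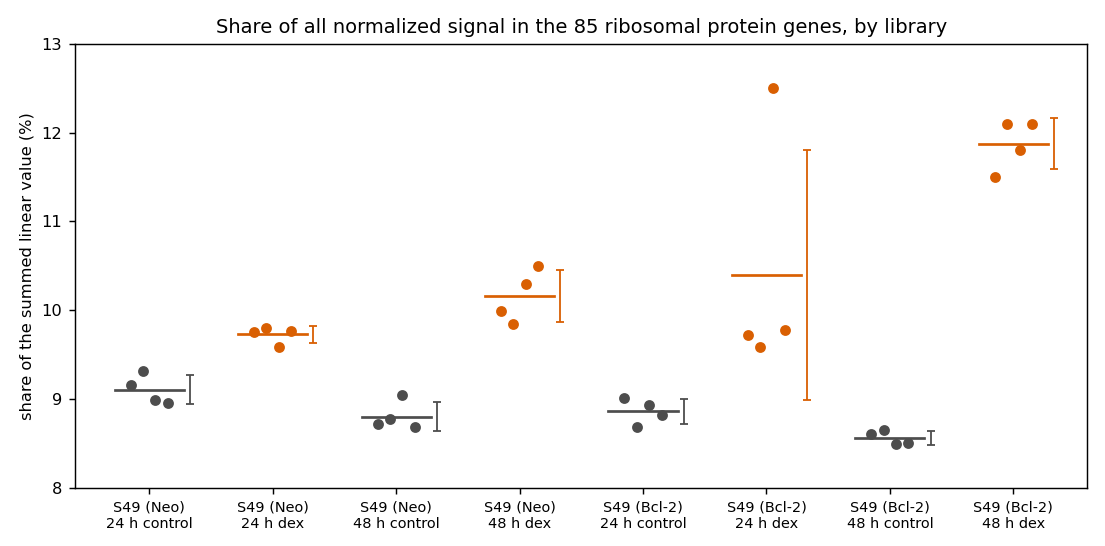
Share of the summed linear normalized value held by the 85 ribosomal protein genes, in percent, in each of the 32 libraries. Points are libraries (grey control, orange dex), lines are group means and bars are the SD (n = 4); the vertical axis starts at 8%. Dex groups lie above their controls, and the single point at 12.5% is the outlying S49 (Bcl-2) library at 24 h.

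The clearest change was at 48 h in S49 (Bcl-2) cells, where the ribosomal protein mRNAs rose as a body and a few fell. Of the 80 tested, 67 were higher with dex and 4 lower, where 33.9% and 35.2% of all tested genes were called higher and lower (limma, Benjamini-Hochberg adjusted p under 0.05). The median change was 0.36 on the log2 scale, against -0.01 for all tested genes. Leaving out the outlying library gave 70 higher and 6 lower, where 39.5% and 41.5% of all genes were. In 67 members every dex library lay above every control and in 3 below, where 35.7% and 37.3% of all genes did so. Small-subunit genes were higher in 30 of 32 cases and lower in 1, and large-subunit genes in 37 of 48 and lower in 3 (30 and 1, and 40 and 5, without the outlying library).

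S49 (Neo) cells at 48 h showed the same direction with smaller changes. There 52 members were higher and 1 lower (27.3% and 28% of all genes), with a median of 0.22 against 0.00 for all genes. The counts were 69 and 2 without the outlying library (35.1% and 35.7% of all genes). Every dex library lay above every control in 61 members and below in 1, where 31.2% and 31.3% of all genes did so. Of the 52, 51 (98.1%) were also higher in S49 (Bcl-2), and they made up 76.1% of the 67 called there. The libraries of the lines are separate, and across the 80 genes, which are not independent replicates, the changes in the lines correlated with r = 0.87 and Spearman's rho = 0.88.

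**Figure D2:**
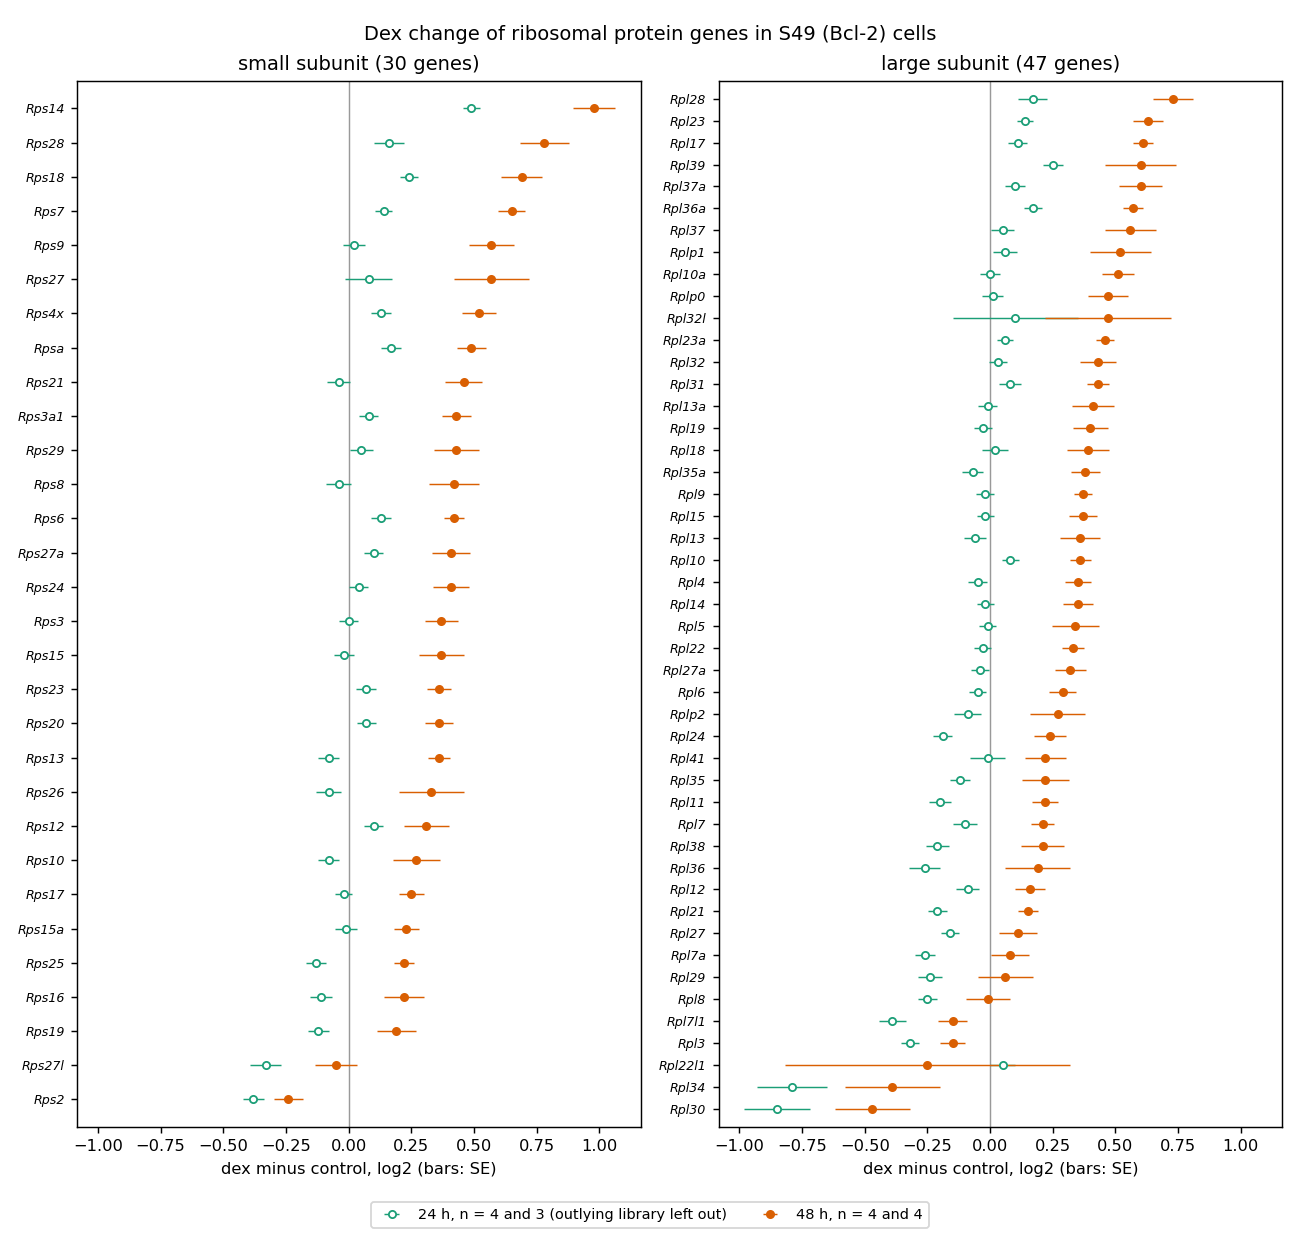
Dex minus control on the log2 scale for 77 of the 80 tested genes in S49 (Bcl-2) cells, small subunit on the left and large subunit on the right, ordered by the change at 48 h. Filled points are 48 h in the fit of all libraries and open points 24 h without the outlying library; bars are the SE. At 48 h most points lie to the right of 0, up to 0.98 for Rps14, and the 4 called lower, to the left of 0, are Rpl30, Rps2, Rpl3 and Rpl7l1.

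At 24 h, with all libraries on the deposited scale, most members had no call and those called went both ways. The called shares of members were below those of all genes in both lines and both directions. In S49 (Bcl-2) cells 22 were higher and 11 lower (32.5% and 35.1% of all genes), with a median of 0.08 against -0.04. Without the outlying library the balance turned, with 18 higher, 21 lower (37.6% and 37.3% of all genes) and a median of -0.01. Quantile normalization gave 52 higher and 6 lower, and median-centring 12 and 8. In S49 (Neo) cells 11 were higher and 7 lower (25% and 25.5% of all genes), with a median of 0.05. Without the outlying library 29 were higher and 10 lower (31.7% and 35.1% of all genes). With all libraries, median-centring gave 3 higher and 7 lower and quantile normalization 34 and 6. The balance of calls at 24 h thus depended on the scaling and on 1 library. The linear share was higher with dex at 24 h in both lines. In S49 (Bcl-2), without the outlying library, the mean of the 80 members was 15.17 with dex and 15.21 in controls. The share also depends on the signal of all other genes, and their part was not tested. At 48 h each scaling kept at least 32 members higher and at most 4 lower in either line.

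Rps14, a protein of the 40S platform, showed the largest rise of all members in each of the 4 dex comparisons. In S49 (Bcl-2) cells at 48 h it read 15.51, 15.49, 15.53 and 15.46 in controls and 16.44, 16.52, 16.45 and 16.50 with dex, a change of 0.98 ± 0.084 (SE; 1.98-fold, adjusted p = 3.06e-11). At 24 h the controls were 15.58, 15.55, 15.62 and 15.56 and the dex libraries 16.04, 16.11, 16.71 and 16.04, the third being the outlying library. The groups did not overlap, and the change was 0.65 with that library and 0.49 without it. In S49 (Neo) cells it rose by 0.49 at 24 h and 0.86 at 48 h (1.82-fold, adjusted p = 7.46e-10), from 15.48 to 15.55 in controls at 48 h to 16.33 to 16.46 with dex. Its dex change was larger at 48 h than at 24 h in both lines, by 0.38 in S49 (Neo) (adjusted p = 0.0247) and 0.33 in S49 (Bcl-2) (adjusted p = 0.0265). The difference between lines at 48 h was 0.12 (95% interval -0.12 to 0.36, adjusted p = 0.456), and without the outlying library it was 0.12 ± 0.045 with an adjusted p of 0.0225.

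Proteins of the 40S head were among the next largest. Rps28 read 13.99 to 14.14 in S49 (Bcl-2) controls at 48 h and 14.68, 14.98, 14.81 and 14.88 with dex, a change of 0.78 ± 0.098 (adjusted p = 4.81e-08). In S49 (Neo) it rose by 0.52. Rps18, also of the head, rose by 0.69 in S49 (Bcl-2) and 0.41 in S49 (Neo). All 14 tested head proteins were higher at 48 h in S49 (Bcl-2), with a median of 0.37. In S49 (Neo) 9 of 14 were, with a median of 0.21, or 14 of 14 without the outlying library. These medians were near the 0.36 and 0.22 of all 80 members, of which 67 and 52 were called higher. Rps6, the 40S protein that S6 kinases phosphorylate, rose by 0.42 and 0.26. Rpsa, which sits on the 40S surface and was the most abundant member, rose by 0.49 and 0.33, and its S49 (Bcl-2) libraries at 48 h did not overlap, at 16.87 to 16.91 against 17.31 to 17.42.

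In the large subunit Rpl28 rose most, by 0.73 ± 0.081 in S49 (Bcl-2) and by 0.48 in S49 (Neo) at 48 h. Rpl28 read 15 to 15.08 in S49 (Bcl-2) controls and 15.60, 15.88, 15.84 and 15.77 with dex. Rpl23, which lies at the interface of the subunits and is known to bind the p53 inhibitor Mdm2, rose by 0.63 and 0.38. The rim of the exit tunnel, where the new chain leaves, was higher in all 6 tested genes in S49 (Bcl-2), with a median of 0.44. In S49 (Neo) 5 of 6 were higher (6 without the outlying library), with a median of 0.24. The medians of all members were 0.36 and 0.22. The stalk proteins Rplp0, Rplp1 and Rplp2, which recruit elongation factors, rose by 0.47, 0.52 and 0.27 in S49 (Bcl-2). In S49 (Neo) Rplp0 rose by 0.27 and Rplp1 by 0.29, and Rplp2 was at 0.15 without a call. Rpl5 and Rpl11 bind 5S rRNA and, when free, Mdm2. They rose by 0.34 and 0.22 in S49 (Bcl-2) and were at 0.19 and 0.11 without a call in S49 (Neo), where Rplp2, Rpl5 and Rpl11 were all called higher without the outlying library.

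**Figure D3:**
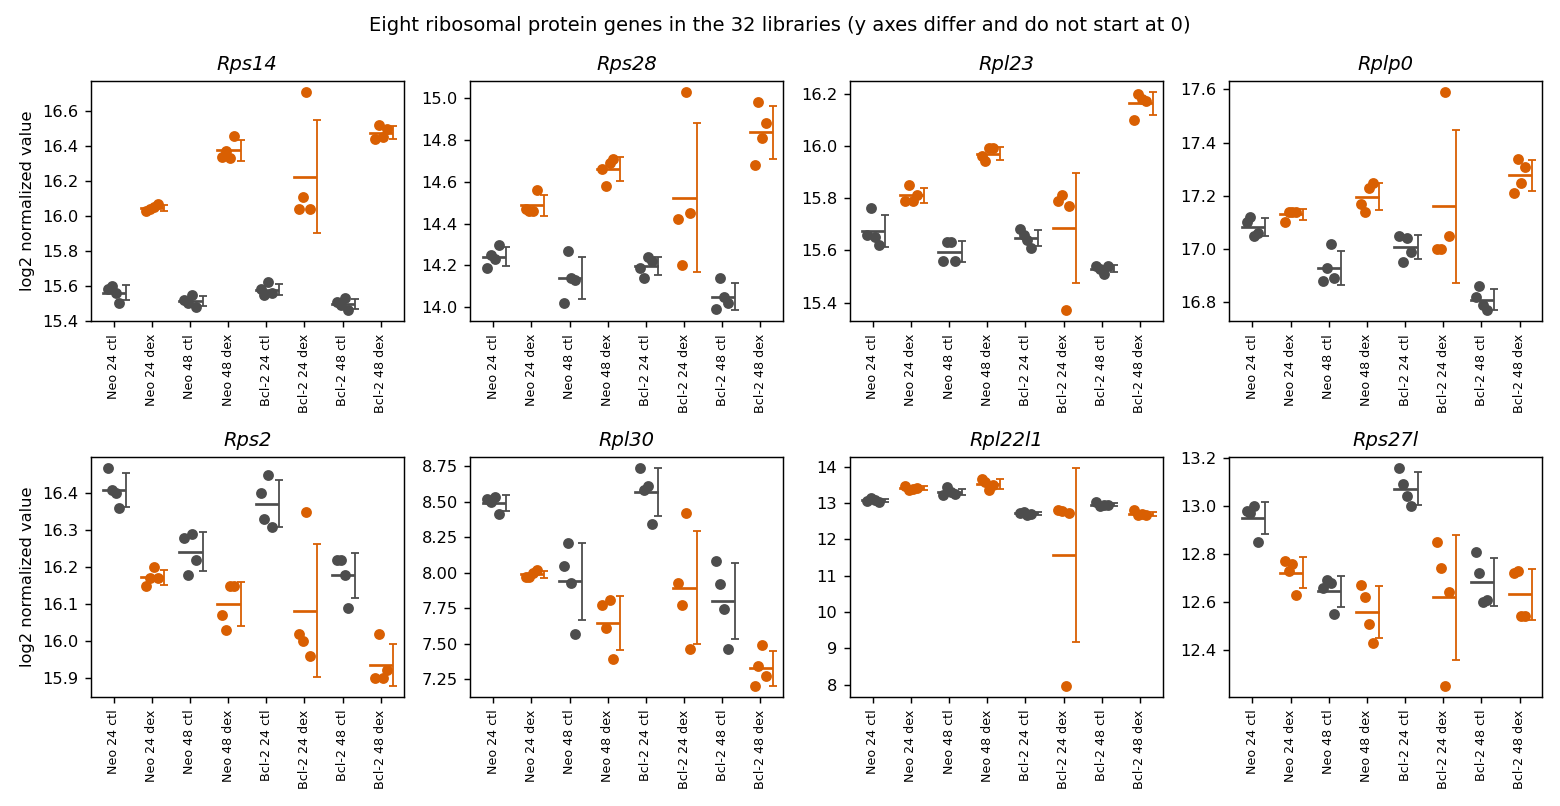
Log2 normalized values of 8 members in all 32 libraries, by line (Neo, Bcl-2), hours and treatment (grey control, orange dex); lines are means, bars the SD (n = 4), and the axes differ between panels and do not start at 0. Rps14, Rps28, Rpl23 and Rplp0 have their highest means in the dex groups at 48 h. Rps2 has a lower mean in each dex group than in its control, and Rpl30 has its lowest mean in S49 (Bcl-2) dex cells at 48 h. The highest single points of Rps14, Rps28 and Rplp0 are the outlying S49 (Bcl-2) library at 24 h, as is the single point at 7.96 in Rpl22l1.

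Against this background a small number of members fell. Rps2, a 40S protein at the mRNA entry, was lower in all 4 dex comparisons. In S49 (Bcl-2) at 48 h it read 16.22, 16.22, 16.18 and 16.09 in controls and 15.90, 16.02, 15.90 and 15.92 with dex, a change of -0.24 ± 0.059 (adjusted p = 0.000696). It changed by -0.29 at 24 h in that line, and by -0.23 and -0.14 at 24 h and 48 h in S49 (Neo). Rps2 was the only member called lower in S49 (Neo) at 48 h, joined by Rpl30 without the outlying library. Of its 75-base words 64.4% also occur in other genes.

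Rpl3, a protein close to the catalytic centre, changed in S49 (Bcl-2) by -0.26 at 24 h and by -0.15 at 48 h (adjusted p = 0.00626). Its S49 (Bcl-2) libraries at 48 h were 16.26 to 16.33 in controls and 16.12 to 16.18 with dex. In S49 (Neo) it was at -0.14 at 24 h (adjusted p = 0.0144) and 0.03 at 48 h (adjusted p = 0.652). The difference between lines at 48 h was -0.18 (adjusted p = 0.0345). Rpl30, a large-subunit protein that in yeast binds its own transcript, fell in S49 (Bcl-2) by 0.67 at 24 h and by 0.47 at 48 h, and in S49 (Neo) by 0.50 at 24 h. At 48 h in S49 (Bcl-2) it read 8.08, 7.92, 7.74 and 7.46 without dex and 7.20, 7.34, 7.49 and 7.27 with it, so that the groups overlapped slightly. Its controls had themselves fallen between 24 h and 48 h, by 0.77. The mean of Rpl30 was 7.96, where 73 members had at least 14. Whether its counted reads stand for the whole of its mRNA was not tested. Rpl34, also listed at a low level, was called lower in S49 (Bcl-2) at 24 h (-0.48, adjusted p = 0.0292) and had no call in the other dex comparisons. Without the outlying library it was at -0.79 there and was also called in S49 (Bcl-2) at 48 h (-0.39) and in S49 (Neo) at 24 h (-0.35).

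Of the paralogs of ribosomal proteins, 3 could be tested, and each is set beside the protein it resembles. Rpl22 binds RNA and is needed for development of αβ T cells in the mouse, and it is known to hold down its paralog Rpl22l1. In S49 (Bcl-2) at 48 h Rpl22 rose from 14.49 to 14.54 in controls to 14.75, 14.86, 14.86 and 14.85 (0.33 ± 0.044, adjusted p = 2.14e-07), and in S49 (Neo) it rose by 0.15. Rpl22l1 read 13.02, 12.91, 12.94 and 12.94 in the same controls and 12.79, 12.67, 12.68 and 12.67 with dex, below every control. In S49 (Neo) at 24 h it was instead above every control, at 13.36 to 13.47 against 13.02 to 13.12. With all libraries no comparison of Rpl22l1 passed the test, because 1 dex library at 24 h read 7.96 while the other 3 read 12.80, 12.77 and 12.73 and the SE was 0.57. Without that library Rpl22l1 was at -0.25 in S49 (Bcl-2) at 48 h (adjusted p = 2.01e-05) and at 0.22 in S49 (Neo) (adjusted p = 0.000149), a difference between lines of -0.47 (adjusted p = 8.44e-07).

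Rpl7l1 changed in S49 (Bcl-2) by -0.34 at 24 h and by -0.15 at 48 h, and in S49 (Neo) by -0.18 and then 0.16, all 4 past the threshold. Its difference between lines at 48 h was -0.30 (adjusted p = 0.00343). Rpl7 itself was at -0.08 (no call) and then 0.14 in S49 (Neo), and at -0.10 and then 0.21 in S49 (Bcl-2), where the value at 24 h reversed to 0.06 under quantile normalization. Rps27l, known as a target of p53, read 13.16, 13.09, 13.04 and 13 in S49 (Bcl-2) controls at 24 h and 12.85, 12.74, 12.25 and 12.64 with dex. It fell by 0.45 there (0.33 without the outlying library) and was at -0.05 at 48 h, when its controls were lower by 0.39. Rps27, the protein it resembles, had a low mean of 7.95 and rose by 0.57 in S49 (Bcl-2) and 0.44 in S49 (Neo) at 48 h. Of the 3 tested paralogs 0 were higher and 1 lower in S49 (Bcl-2) at 48 h (2 lower without the outlying library). Of the 7 canonical partners 6 were higher and 1, Rpl3, lower. Of all tested genes 33.9% were higher and 35.2% lower (39.5% and 41.5% without that library). With 3 paralogs the counts cannot be told apart from these shares.

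Whether the response grew between 24 h and 48 h was tested as the difference of the dex changes, in which the controls at each time take part. In S49 (Bcl-2) 48 members were higher in that difference and 0 lower, where 17.1% and 21.3% of all genes were. The median was 0.27, and all 80 values were above 0 (0.03 to 0.90). Without the outlying library 75 were higher and 1, Rpl22l1, lower, where 24.6% and 28.7% of all genes were. There were 5 members called lower at 24 h and higher at 48 h, among them Rpl21, Rps25, Rpl11 and Rpl7, and another 40 had no call at 24 h and were higher at 48 h. In S49 (Neo) 12 were higher and 0 lower (8.72% and 10.5% of all genes), with a median of 0.18. Without the outlying library the counts were 61 and 0, beside 20.5% and 19.3% of all genes. Rpl39, a small protein of the tunnel wall, showed the largest called value in S49 (Bcl-2) (0.64, adjusted p = 0.0112), lowered to 0.36 when its 24 h library at 14.08, against 15.17 to 15.24 in the others, was left out. Rpl23 was next at 0.60 (adjusted p = 3.28e-06), 0.49 without that library, and Rpl5 at 0.53, 0.35 without it. In S49 (Neo) the largest called values were those of Rps14, Rpl7l1 (0.34) and Rpl24 (0.28), a 60S protein that forms a bridge to the 40S subunit. Rps27 was at 0.45 there and was called without the outlying library but not with it.

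Part of this difference lay in the untreated cells. Members fell with time in culture in both lines, by a median of 0.12 in S49 (Neo) and 0.16 in S49 (Bcl-2), while the median of all genes was 0.01 in each. In S49 (Neo) controls 0 members were called higher and 20 lower at 48 h than at 24 h, where 25.1% of all genes were higher and 21.7% lower. In S49 (Bcl-2) controls 0 were higher and 33 lower, where 25.9% of all genes were higher and 23.6% lower. With the outlying library left out, 58 and 72 were lower and 1, Rpl22l1, higher in each. Of all genes 30.9% and 32.7% were then lower, and 33.8% and 34.7% higher. The fall depended on scaling: under quantile normalization the medians were -0.02 and 0.00, with 7 and 6 lower and 1 higher in each line. In S49 (Bcl-2) controls the mean of the 80 members was 15.21 ± 0.035 (SD, n = 4) at 24 h and 15.03 ± 0.031 at 48 h, and it was 15.24 ± 0.15 (15.17 without the outlying library) and 15.37 ± 0.041 in the dex groups. In S49 (Neo) the means were 15.23 ± 0.046 and 15.10 ± 0.039 without dex and 15.27 ± 0.012 and 15.32 ± 0.031 with it. Control means moved down and dex means up between the times in both lines, on the deposited scale. Largest in this fall were Rpl34 (-0.66 and -0.87), Rpl30 (-0.55 and -0.77), Rps27 in S49 (Neo) (-0.47) and Rpl7l1 in S49 (Bcl-2) (-0.50).

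The dex response differed between the lines at 48 h. Of the 80 members 10 responded more in S49 (Bcl-2) and 2 less, where 19.9% and 20.9% of all genes did, so the called share was below that of all genes. The median difference was 0.14 against 0.00 for all genes, and 70 of 80 were above 0. Without the outlying library 46 were called higher and 3 lower, where 28.1% and 31.4% of all genes were. Of the genes called with all libraries, Rpl17, a protein of the tunnel rim, differed most, at 0.37 ± 0.058 (adjusted p = 1.13e-05). It read 15.17 to 15.24 and, with dex, 15.76 to 15.84 in S49 (Bcl-2), and 15.27 to 15.39 and, with dex, 15.50 to 15.69 in S49 (Neo). Rps7 (0.26, adjusted p = 0.00886), a 40S protein also known to bind Mdm2, and Rpl23 (0.26, adjusted p = 0.0172) followed, and Rpl7l1 and Rpl3 were the 2 lower. At 24 h limma called 0 members, where 11% of all genes were higher and 8.51% lower, and 0 had an unadjusted p under 0.05. Without the outlying library 0 were higher and 10 lower, where 17.4% and 18.5% of all genes were. Among the 10 were Rpl22l1 (-0.28), Rpl7l1 (-0.20) and Rpl3 (-0.18). Quantile normalization with all libraries gave 8 higher and 0 lower.

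**Figure D4:**
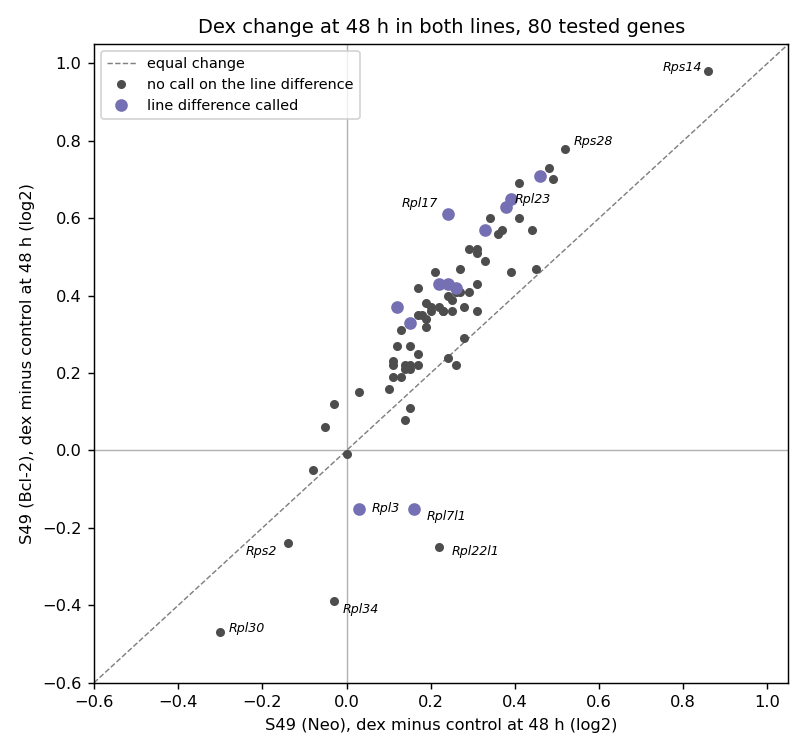
Dex minus control at 48 h (log2) for the 80 tested genes, S49 (Neo) on the horizontal and S49 (Bcl-2) on the vertical axis, with 4 libraries in each group. Points above the dashed line of equal change had the higher value in S49 (Bcl-2), as 70 of the 80 did; the 12 larger purple points passed the test of the difference between lines.

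Without dex the lines differed in few members. Rpl31, Rpl37a and Rpl7 were higher in S49 (Bcl-2) controls, and Rps19, a 40S head protein whose loss causes an inherited anemia in humans, was lower; these were the only 4 calls at 24 h, where 12.9% and 14% of all genes were called higher and lower. Rpl31 read 15.47 to 15.64 in S49 (Neo) and 15.84 to 15.99 in S49 (Bcl-2), a difference of 0.40 ± 0.045 (adjusted p = 5.84e-08). Rpl37a differed by 0.35, Rpl7 by 0.27 and Rps19 by -0.33, each without overlap of the libraries. At 48 h the same 4 genes differed by 0.37, 0.31, 0.30 and -0.35, and Rps12 (-0.27) and Rpl17 (-0.15) were among the genes that were also lower, in all 3 higher and 4 lower beside 11.7% and 14.2% of all genes. With the outlying library left out the calls were 3 higher and 7 lower at 24 h and 3 and 21 at 48 h. Of all genes 22.2% were then higher and 21.2% lower at 24 h, and 20.1% and 22.4% at 48 h. The 21 lower at 48 h were thus near the share of all genes. Quantile normalization gave 3 higher and 7 lower at 24 h.

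The 3 genes that were higher in S49 (Bcl-2) controls are the only tested members on chromosome 1. Their lowest RefSeq coordinates on GRCm38.p6 are 16101295 for Rpl7, 39367851 for Rpl31 and 72711260 for Rpl37a. Rpl7 lies on the minus strand, so its transcript starts at its other end, 16104433. Chromosome 1 had 23.2% of its 617 tested genes higher and 27.4% lower in S49 (Bcl-2) controls at 24 h, and a median of -0.04. Within 5 Mb of Rpl7 the 14 other tested genes had a median of 0.38, with 7 higher and 0 lower. Around Rpl37a the 40 neighbours had a median of 0.37, with 29 higher and 2 lower. Around Rpl31 the 51 neighbours had a median of -0.16, with 11 higher and 21 lower, and around Rps19 on chromosome 7 the 120 neighbours had a median of -0.05, with 5 higher and 15 lower. Rpl7 and Rpl37a thus differed between lines by about as much as the genes beside them, and Rpl31 and Rps19 did not. These windows were chosen after the values had been seen.

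Genes of the same machinery outside the name rule moved in part alike. All 4 tested ribosomal protein genes with other names were higher at 48 h in both lines, among them Rack1, Fau and Rpl36al, by 0.54, 0.31 and 0.20 in S49 (Bcl-2) and by 0.34, 0.26 and 0.32 in S49 (Neo). Of 78 tested proteins of the mitochondrial ribosome, 6 were higher and 40 lower in S49 (Bcl-2) at 48 h (33.9% and 35.2% of all genes), with a median of -0.22. In S49 (Neo) 21 were higher and 10 lower (27.3% and 28% of all genes), with a median of 0.07. The counts were 8 and 49, and 34 and 15, without the outlying library. Of all genes 39.5% and 41.5%, and 35.1% and 35.7%, were then called. In the difference between lines at 48 h, 0 mitochondrial members were higher and 41 lower (median -0.26; 1 and 59 without the outlying library), beside 10 and 2 of the cytosolic genes (median 0.14) and 19.9% and 20.9% of all genes. Mrpl13 (-0.78) and Mrpl18 (-0.71) were among those that fell in S49 (Bcl-2).

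Other mRNAs known to carry the oligopyrimidine tract were divided, with 10 of 22 higher and 6 lower in S49 (Bcl-2) at 48 h (median 0.13), where 33.9% of all genes were higher and 35.2% lower. Tpt1, a growth-related protein, rose by 1.01 in S49 (Bcl-2) and 0.68 in S49 (Neo), the initiation factor subunit genes Eif3f and Eif3h rose by 0.65 and 0.41 in S49 (Bcl-2), and Ybx1, an RNA-binding protein, fell by 1.02. At 48 h in S49 (Bcl-2) the 32 tested members with the tract had a median of 0.35 with 27 higher, and the 28 without it a median of 0.37 with 25 higher; the difference was not tested. Elongation factors and their regulators split as well, with 4 of 10 higher and 5 lower. Eef2k, the kinase that inactivates elongation factor 2, rose by 1.74 in S49 (Bcl-2) and 0.94 in S49 (Neo) at 48 h, a difference between lines of 0.80 (adjusted p = 2.13e-09).

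Of 18 genes for regulators of these mRNAs, 8 were higher and 7 lower in S49 (Bcl-2) at 48 h, shares near those of all genes (33.9% and 35.2%), and the small lists that follow are to be read against the same shares. Pdcd4, which blocks the initiation helicase, rose by 2.20 in S49 (Bcl-2) and 2.01 in S49 (Neo). Mtor rose by 0.72 and 0.50 and the S6 kinase gene Rps6kb2 by 0.71 and 0.74, while Eif4ebp1, an inhibitor of cap-dependent initiation, fell by 1.21 and 0.89. Larp1 was lower in S49 (Bcl-2), at -0.34 at 24 h and -0.13 at 48 h, and higher in S49 (Neo), at 0.18 and 0.57, a difference between lines of -0.70 at 48 h (adjusted p = 7.62e-09). Of 9 tested genes for factors known to bind ribosomal protein promoters 1 was higher and 2 lower in S49 (Bcl-2) at 48 h (5 lower without the outlying library), Gabpb1 of the ETS family falling by 0.77. Of 9 chaperones of single ribosomal proteins 1 was higher and 4 lower, among them Ltv1 (-0.38), an assembly factor of the 40S subunit. Of 12 genes for ribosome rescue and storage 2 were higher and 6 lower, with Serbp1, which occupies idle ribosomes, at -0.57. The 5 other genes whose level followed the mean of the members most closely over the 8 group means were Epb41l4aos (Pearson's r = 0.981), Eif3h (0.965), Ctu1 (0.965), Cog2 (0.963) and Nfkbil1 (0.963). Their dex change in S49 (Bcl-2) at 48 h was 1.13, 0.41, 0.73, 0.27 and 0.36 in that order. Both groups of that comparison took part in the ranking, so these rises follow from the choice of genes.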

How the data were processed

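Poly(A)-selected RNA of 32 libraries was sequenced by the authors, whose processing notes name STAR, featureCounts, DESeq2 and the mm10 build. The deposited table holds log2 normalized values (-2.38 to 20.15), made by the authors with DESeq2. The transform is not given in the sources used here, the read depth behind the values is unknown and no counting interval is given. No column was left unmatched, no library pair was identical, and 26 symbols had become dates.

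A model with 1 mean per group was fitted over all 32 libraries with limma 3.58.1 (R 4.3.3), with a trend of variance on mean, in genes with a mean of at least 3.46 (log2 of 10 + 1). P-values were adjusted over all 11562 genes by the method of Benjamini and Hochberg with a threshold of 0.05. The fit was tested on simulated data. Linear shares were sums of 2 to the power of the values. GC content and shared 75-base words came from GENCODE M21 transcripts (GC for 97.9% of tested genes), starts and promoters from RefSeq (GRCm38.p6).

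Members, lists and tests were chosen with earlier results of these data known. Genes named were the 5 largest called rises and falls in each dex comparison, the 3 largest in each other comparison, the 3 highest and 3 lowest members, Rpsa, the stalk, the 5S particle, the paralogs and their partners; from other lists up to 4 genes with the smallest p in S49 (Bcl-2) at 48 h, and the 5 genes with the highest r to the members' mean. Rps6, Rpl34 at other times, Larp1 and the members counted by name in groups of 5 or fewer were added after their values were seen. Results for 4 genes are not reported here by name; they remain in the counts. Deviations of same-numbered control and dex libraries correlated positively in all pairs. Every r was over 0.1, the level set for pairing, only in S49 (Bcl-2) at 24 h (0.198 to 0.225). In the other pairs of groups the lowest r was 0.033 to 0.079 and the highest 0.325 to 0.476. Controls correlated best with the dex library of their own number in 4 of 4 cases in S49 (Bcl-2) at 24 h. In each other pair of groups this held for 3 of 4. Between different numbers the mean r was -0.092 to -0.053. The main fit did not use the replicate number. Alternatives were another filter or none, median-centring, quantile normalization, 16 libraries of 1 line, array weights, unadjusted p under 0.01, a replicate block, GC correction, both together, and leaving out each library.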

Additional observations from a re-analysis of the deposited data

Results flagged for a closer look

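Dixon's test was run on 216 sets of 4 values, each from 1 group, and marked a value as standing apart in 23 of them. By chance about 1 in 20 independent sets would be marked, and these sets are not independent. Of the 23, 13 were replicate 3 of the dex-treated S49 (Bcl-2) cells at 24 h. In that library Rps14 was at 16.71, Rpl3 at 16.40, Rps27 at 9.18, Rplp0 at 17.59, Rplp1 at 17.57, Rpsa at 17.52, Rps19 at 15.63 and Rpl37a at 16.13, each above the other 3. Rpl23 (15.37), Rpl22l1 (7.96), Rpl39 (14.08) and Rpl5 (15.41) were below the others, and the linear share of the members was 12.5%. Its values followed transcript GC content as described above, and whether this arose in the cells or in the library was not tested.

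The other marked values were small departures. In S49 (Bcl-2) controls at 24 h, replicate 4 was low for Rpl17 (15.22), Rpl7 (16.70) and Rpl5 (16.14). In S49 (Bcl-2) dex cells at 48 h, Rps2 was high in replicate 2 (16.02), and in replicate 1 Rpl22 was low (14.75) and Rpl22l1 high (12.79). In S49 (Neo) cells at 24 h, Rpl39 was high in control replicate 2 (15.22) and Rps28 in dex replicate 4 (14.56), while Rpl22 (14.52) was low in dex replicate 3 and Rplp0 (17.10) in dex replicate 1.

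Differences of dex responses that passed the test were also marked. Between the times, 12 members differed in S49 (Neo), among them Rps14 (0.38), Rpl7l1 (0.34) and Rpl24 (0.28), and 48 in S49 (Bcl-2), among them Rpl39 (0.64), Rpl23 (0.60) and Rpl5 (0.53). Between the lines at 48 h 12 differed, among them Rpl17 (0.37), Rps7 (0.26), Rpl23 (0.26), Rpl7l1 (-0.30) and Rpl3 (-0.18).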

How the results depend on the processing

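The rise at 48 h kept its direction under every alternative run: 45 to 69 members were higher in S49 (Neo), except 32 after median-centring, and 59 to 70 in S49 (Bcl-2). The other counts of called members moved with the scaling and the estimate of spread, and the cause was not tested. Counts are given for the Neo dex change at 24 h and 48 h, the Bcl-2 dex change at 24 h, the change of the dex response over time in Neo and Bcl-2, the line difference of the response at 24 h and 48 h, the control lines at 24 h and 48 h, and control time in Neo and Bcl-2, naming those that moved. Median-centring gave 10 members for Neo at 24 h (3 higher, 7 lower), 32 for Neo at 48 h, 20 for Bcl-2 at 24 h and 6 for the Neo response over time. Quantile normalization gave 40 for Neo at 24 h, 58 for Bcl-2 at 24 h, 5 and 31 for the responses over time, 8 and 45 for the line difference, 10 for control lines at 24 h (3 higher, 7 lower), and 8 and 7 for control time. With 16 libraries of 1 line the counts were 37 and 19 for Neo and Bcl-2 at 24 h, 58 and 28 for the responses over time, and 53 and 15 for control time. Array weights gave 44 for Neo at 24 h, 47 for Bcl-2 at 24 h (20 higher, 27 lower), 60 and 76 for the responses, 24 and 49 for the line difference, 12 (4 higher, 8 lower) and 25 for control lines, and 49 and 72 for control time. GC correction gave 29 for the Neo response, 3 and 28 for the line difference, 11 for control lines at 48 h and 35 for Neo control time. The replicate block with GC correction gave 32, 3, 30, 12 and 38 for these. The replicate block alone changed no count by over 1.5 times: it gave 18 and 57 for Neo, 35 and 73 for Bcl-2, 16 and 51 for the responses, 0 and 15 for the line difference, 4 and 7 for control lines, and 22 and 32 for control time.

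Leaving out 1 library gave 14 to 39 and 47 to 71 for Neo at 24 h and 48 h, 25 to 39 and 63 to 76 for Bcl-2, 8 to 61 and 38 to 76 for the responses over time, 0 to 10 and 8 to 49 for the line difference, 4 to 10 and 6 to 24 for control lines, and 12 to 59 and 21 to 73 for control time. The highest of each came without the outlying library, and leaving it out also raised the called shares of all genes. That step also turned Bcl-2 at 24 h to 18 higher and 21 lower. Among single genes in Bcl-2 at 24 h, Rplp2 reversed to -0.15 and Rpl39 to 0.22 under array weights, Rpl39 ranged from -0.14 to 0.25 on leaving out 1 library, the highest without the outlying one, and Rpl7 to 0.06 under quantile normalization and 0.04 under GC correction, with or without the block.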
